A study of Mus musculus with 6 samples.

Results

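Axon guidance genes encode the secreted and membrane-bound cues that steer growing axons, and the receptors that read them. The genes described here are the semaphorins and their plexin and neuropilin receptors, the ephrins and their Eph receptors, the Slit ligands and their Robo receptors, and the netrins with the Unc5 receptors. The families were picked with earlier results of these data known, and their members were taken by gene symbol, as every probe set of the deposited expression table whose only annotated symbol belongs to one of these families, which gave 71 of 34760 probe sets. These stand for 67 of 19937 named genes, with 1 probe set used per gene, the brightest over all arrays. The arrays measured mouse embryonic stem (mES) cells in which Trim71, an RNA-binding protein and ubiquitin ligase also called Lin41, had been knocked down, against control cells, on 3 single-colour Affymetrix arrays per group. Knockdown cells had received a mixture of 3 siRNAs against Trim71 by lipid transfection, and RNA was taken after 72 h. The protocol names a non-targeting siRNA as its counterpart, but control arrays are labelled wild-type and the title speaks of parental cells, so it is not settled that the controls were transfected. Neither the cell line's name nor the origin of the replicates (separate cultures or 1 culture) is stated, so p-values here reflect variation between these samples only, possibly technical.

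Semaphorins bind plexins directly or through neuropilin co-receptors, and plexins act on small GTPases to collapse or redirect the cytoskeleton. Ephrins stay attached to the cell that makes them and signal on contact through Eph receptor tyrosine kinases, often with a return signal into the ephrin-bearing cell. Slits, released by midline cells of the nervous system, repel axons through Robo receptors, and netrins attract or repel through Dcc or Unc5 receptors. All of these families also act outside the nervous system, in vessels, epithelia and early embryos, where they set cell contact, adhesion and migration.

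The values are log2 expression levels as the authors deposited them, and a difference of 1 between log2 levels is a change by a factor of 2. A gene was called changed at a Benjamini-Hochberg adjusted p under 0.05 in limma over all 19937 genes. Errors of log2 fold changes (knockdown minus control) are standard errors (SE), and errors of group means are SDs with n = 3. Trim71 itself read 10.48, 10.50 and 10.51 on control arrays 1 to 3 and 9.00, 8.95 and 8.98 on knockdown arrays 1 to 3, a fall to 34.9% of the control level. Knockdown array 3 stood apart from the other arrays, with deviations from its group mean of a root mean square of 0.11 against 0.067 to 0.091 on the other 5. Of 12 embryonic stem cell markers, all were measured, and their mean log2 level ran from 11.18 to 11.21 on the control arrays and from 11.27 to 11.34 on the knockdown arrays. In RNA from whole cultures, fewer cells of a type and less RNA per cell cannot be told apart.

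After the knockdown 7 of the 67 guidance genes rose and 1 fell. The ephrin gene Efna3, the plexin gene Plxnb2 and the semaphorin genes Sema3c, Sema3e and Sema4d rose, as did the Slit gene Slit3 and the ephrin gene Efnb2, while the Robo gene Robo4 fell. The share called higher was 10.4% of guidance genes, where 3.39% of all genes tested were called higher, and the share called lower was 1.49% where 2.15% of all genes were called lower, which makes 5.53% of all genes in either direction. The median log2 fold change over the 67 genes was 0.06, beside 0.00 over all 19937 genes. After repeated quantile normalization it was 0.03 beside −0.01, with arrays centred on their medians 0.03 beside −0.03, and without control array 2 it was 0.03 beside 0.00. Only Efna3, Plxnb2, Sema3c and Robo4 changed by at least 1.5-fold, and these 4 were also the genes that stayed called whichever of the 6 arrays was left out. Over all 19937 genes, 109 changed by at least 1.5-fold, and 134 higher and 84 lower genes stayed called in that way. The count of higher genes was 3 when any control array or knockdown array 2 was left out, and 5 when knockdown array 1 was. The count of lower genes was 3 without knockdown array 3, where Epha7 and Plxnc1 were called beside Robo4, and 1 without any other array. After a repeated quantile normalization the split was 7 higher and 4 lower, and with arrays centred on their medians it was 6 higher and 2 lower.

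**Figure D1:**
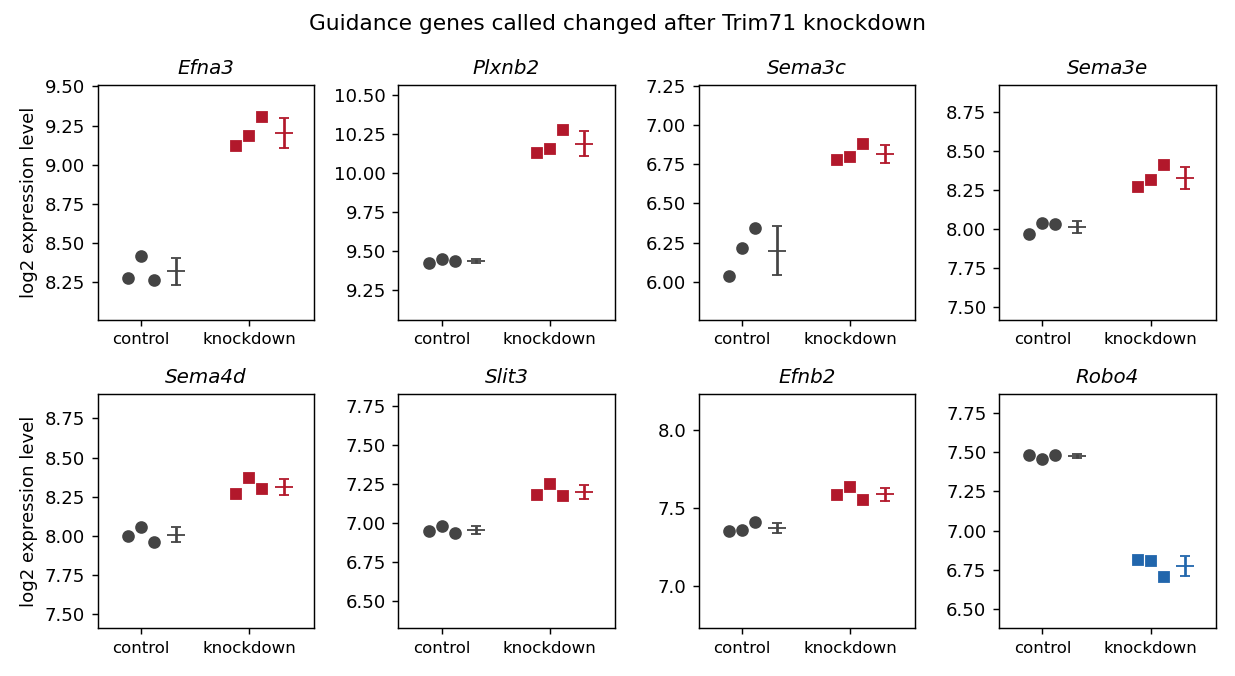
Log2 expression level of the 8 called guidance genes on each array, with control arrays as circles, knockdown arrays as squares, and group means with SD bars (n = 3) at their right; each panel spans the same range of 1.5 log2 units. The groups do not overlap in any of the 8 panels, and Robo4 is the gene in which the knockdown arrays lie below the controls.

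The sequences just before the start sites of the 4 genes that changed by at least 1.5-fold are shown because the 3 that rose and the 1 that fell can be set beside each other there. Each is the 250 bases before an annotated start (RefSeq, build GRCm38.p6), 5′ to 3′ on the gene's strand, with capitals marking GGGCGG or its reverse complement CCGCCC, the core of the GC box. Efna3 lies on the minus strand at chr3:89322940-89323189, Plxnb2 on the minus strand at chr15:89180789-89181038, Sema3c on the plus strand at chr5:17574566-17574815 and Robo4 on the plus strand at chr9:37401722-37401971. Where a gene has several annotated starts, the most upstream is shown.
Efna3: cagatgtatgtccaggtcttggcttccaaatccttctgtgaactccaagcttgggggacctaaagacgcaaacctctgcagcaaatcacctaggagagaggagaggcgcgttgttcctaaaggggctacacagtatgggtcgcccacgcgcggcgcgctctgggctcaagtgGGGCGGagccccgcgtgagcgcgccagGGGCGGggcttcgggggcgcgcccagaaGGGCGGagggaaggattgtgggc
Plxnb2: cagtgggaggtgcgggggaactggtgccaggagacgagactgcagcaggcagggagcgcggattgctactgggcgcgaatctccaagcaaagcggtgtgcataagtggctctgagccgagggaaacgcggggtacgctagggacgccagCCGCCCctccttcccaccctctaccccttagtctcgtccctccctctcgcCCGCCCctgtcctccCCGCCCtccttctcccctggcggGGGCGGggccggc
Sema3c: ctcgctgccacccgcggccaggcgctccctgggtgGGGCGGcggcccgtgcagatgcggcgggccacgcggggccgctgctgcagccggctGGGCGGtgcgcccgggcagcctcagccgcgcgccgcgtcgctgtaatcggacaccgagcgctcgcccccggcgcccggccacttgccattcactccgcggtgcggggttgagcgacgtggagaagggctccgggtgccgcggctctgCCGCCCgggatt
Robo4: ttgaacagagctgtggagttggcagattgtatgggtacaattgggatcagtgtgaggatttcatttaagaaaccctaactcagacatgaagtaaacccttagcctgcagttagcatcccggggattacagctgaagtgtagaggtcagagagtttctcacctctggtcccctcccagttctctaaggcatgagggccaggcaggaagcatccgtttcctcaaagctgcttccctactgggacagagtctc
The Efna3 window holds 3 GC box cores and 19 CpG dinucleotides, the Plxnb2 window 4 cores and 20 CpG, and the Sema3c window 3 cores and 39 CpG. The Robo4 window holds 0 cores and 2 CpG. The genes that rose by less did not all share the first pattern, since the 3 windows of Sema4d hold 0, 0 and 1 cores and 1, 2 and 2 CpG and the window of Sema3e 2 cores and 7 CpG, while that of Slit3 holds 6 and 35 and that of Efnb2 3 and 27. Over all 32851 windows of this length in the table, 32.7% hold the core on either strand and the median count of CpG is 6. Guidance genes in general had such windows, since 71.6% of the 74 windows of the 58 matched genes hold the core, with a median of 15 CpG. Among the 62 windows of guidance genes that were not called the share was 71.0%. A match of letters is a description and not a binding site.

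Plexins were measured for 9 genes, of which 1 rose and 8 were not called. The share called higher was 11.1%, beside 3.39% of all genes. Plxnb2, the receptor for class 4 semaphorins that is broadly expressed in epithelia and progenitor cells, read 9.43, 9.45 and 9.44 on control arrays 1 to 3 and 10.13, 10.16 and 10.28 on knockdown arrays 1 to 3. The 3 knockdown arrays lay well above the control arrays, which spanned 0.025. Plxnb2 rose 1.68-fold (95% confidence interval 1.54 to 1.83), a log2 fold change of 0.75 ± 0.055 SE with an adjusted p of 0.00169. The other B plexins did not pass. Plxnb1, a receptor for Sema4d, had a log2 fold change of 0.13 (95% confidence interval −0.02 to 0.27), and Plxnb3, a receptor for Sema5a, one of 0.03 (−0.12 to 0.18). Both upper bounds lie below the lower bound of 0.62 for Plxnb2.

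The remaining plexins were not called. Plxnc1, the receptor of Sema7a, read 7.45, 7.47 and 7.43 on control arrays 1 to 3 and 7.14, 7.14 and 7.36 on knockdown arrays 1 to 3. All 3 knockdown arrays were below the controls, knockdown array 3 by the least, and the log2 fold change of −0.24 ± 0.07 SE did not pass (adjusted p = 0.109). Without knockdown array 3 it was −0.31 with an adjusted p of 0.0155 in limma. With any other array left out Plxnc1 was not called (adjusted p from 0.220 to 0.286). With all arrays kept, limma called it lower after repeated quantile normalization (adjusted p = 0.0269) and with array weights (0.0103). It was also called lower among genes at or above the median level (0.0367). It was not called with arrays centred on their medians (0.0624), a trended and robust prior (0.0645) or a replicate block (0.207). Testing all probe sets (0.115) or their mean (0.108) did not call it either. Plxna2 and Plxnd1, the latter the receptor of Sema3e in vessels, also had all knockdown values below all control values, with log2 fold changes of −0.21 (adjusted p = 0.15) and −0.17 (adjusted p = 0.295). Plxna1 was at 0.07, with all knockdown values above all control values, Plxna3 at −0.09 and Plxna4 at −0.04, all not called. Of the 9 plexins, 3 lay below the controls without overlap and 2 above, 33.3% and 22.2%, beside 10.8% and 14.7% of all genes. The A plexins pair with neuropilins to receive class 3 semaphorins. For the family of 9 the median log2 fold change was −0.04, and it was −0.06 and −0.07 under the other scalings.

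Neuropilins, the co-receptors that bind class 3 semaphorins and also vascular endothelial growth factor, were not called. Nrp2 read 8.36, 8.46 and 8.43 on control arrays 1 to 3 and 8.37, 8.39 and 8.46 on knockdown arrays 1 to 3, and the groups overlapped. Its log2 fold change was −0.01, with a 95% confidence interval of −0.13 to 0.11. Nrp1 read 4.41, 4.52 and 4.30 on control arrays 1 to 3 and 4.26, 4.51 and 4.31 on knockdown arrays 1 to 3, and its groups overlapped too. Its log2 fold change was −0.05 ± 0.083 SE (95% confidence interval −0.25 to 0.14, adjusted p = 0.816 in limma), at levels below the median of all genes, where changes of a transcript are understated.

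Semaphorins were measured for 20 genes, of which 3 rose, 0 fell and 17 were not called (7 of the 20 had an unadjusted p under 0.05 in limma, all 7 upward, where 19.0% of all genes had one in either direction). The share called higher was 15%, beside 3.39% of all genes. The knockdown arrays lay above the control arrays without overlap for 9 of the 20 and below them for 0, where 14.7% of all genes lay above and 10.8% below. Class 3 semaphorins are secreted. Among the 7 measured, Sema3c, an attractant and repellent of heart outflow and vessel development, read 6.04, 6.21 and 6.34 on control arrays 1 to 3 and 6.78, 6.80 and 6.88 on knockdown arrays 1 to 3. The controls were the more spread group, and the lowest knockdown value was still 0.43 above the highest control. Sema3c rose 1.54-fold (95% confidence interval 1.35 to 1.75), a log2 fold change of 0.62 ± 0.081 SE with an adjusted p of 0.00793.

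Sema3e, a repellent that binds Plxnd1 without a neuropilin, read 7.97, 8.04 and 8.03 on control arrays 1 to 3 and 8.27, 8.31 and 8.41 on knockdown arrays 1 to 3. Its groups did not overlap, with knockdown array 3 the highest. It rose 1.24-fold, with a log2 fold change of 0.32 ± 0.055 SE and an adjusted p of 0.0197. The other 5 secreted semaphorins were not called. Sema3f had a small and even difference, with controls from 6.78 to 6.79 and knockdown arrays from 6.86 to 6.89, a log2 fold change of 0.10 and an adjusted p of 0.295. Sema3a was at 0.02, Sema3b at −0.07, Sema3d at −0.12 and Sema3g at 0.13, and the values of both groups overlapped for each of these 4.

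Class 4 semaphorins are membrane-bound and signal mainly through B plexins. Of 6 measured, 1 was called higher and 4 had knockdown values above all control values, 16.7% and 66.7%, beside 3.39% and 14.7% of all genes. Sema4d, also called CD100, read 8.00, 8.06 and 7.96 on control arrays 1 to 3 and 8.26, 8.37 and 8.30 on knockdown arrays 1 to 3 at the probe set used. These values rose 1.24-fold, a log2 fold change of 0.31 ± 0.052 SE with an adjusted p of 0.0195. A further probe set annotated to Sema4d did not follow. It read 6.13, 6.23 and 6.56 on the control arrays and 6.31, 6.26 and 6.27 on the knockdown arrays, with a log2 fold change of −0.03 ± 0.10 SE. When all probe sets were tested together, the adjusted p was 0.0211 at the first and 0.935 at the second. The mean of both gave a log2 fold change of 0.14 with an adjusted p of 0.262, so the call of Sema4d holds for 1 of its 2 probe sets.

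Sema4b read 9.76, 9.71 and 9.67 on control arrays 1 to 3 and 9.88, 9.95 and 9.95 on knockdown arrays 1 to 3. Its knockdown values were all above the controls by a small margin, and its log2 fold change of 0.22 ± 0.05 SE had an adjusted p of 0.0508, just outside the threshold. Sema4c, a ligand of Plxnb2, had a log2 fold change of 0.23 ± 0.064 SE (adjusted p = 0.0902), and Sema4a, best known from immune cells and the retina, one of 0.20 ± 0.083 SE (adjusted p = 0.244). Sema4f at 0.02 and Sema4g at −0.05 had overlapping groups. The median of class 4 was 0.21, beside 0.10 for class 3.

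The transmembrane classes 5 and 6 and the lipid-anchored Sema7a were not called. Sema5a was at 0.11, Sema5b at 0.09 and Sema6a, which signals through A plexins, at 0.15 (adjusted p = 0.221). Sema6b, Sema6c and Sema6d were at −0.04, −0.08 and −0.03, and Sema7a at −0.09. For the 20 semaphorins the median log2 fold change was 0.09, and it was 0.06 under each of the other scalings. Ligand and receptor can be read side by side in these values. Plxnb2 was at 0.75, and its ligand genes Sema4d and Sema4c were at 0.31 and 0.23, the latter not called. The further probe set of Sema4d was at −0.03, and Plxnb1, a receptor for Sema4d, was at 0.13 and not called. The class 4 genes Sema4f and Sema4g were at 0.02 and −0.05. Sema3e at 0.32 stood beside its receptor Plxnd1 at −0.17, which was not called. A link between ligand and receptor genes was not tested.

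**Figure D2:**
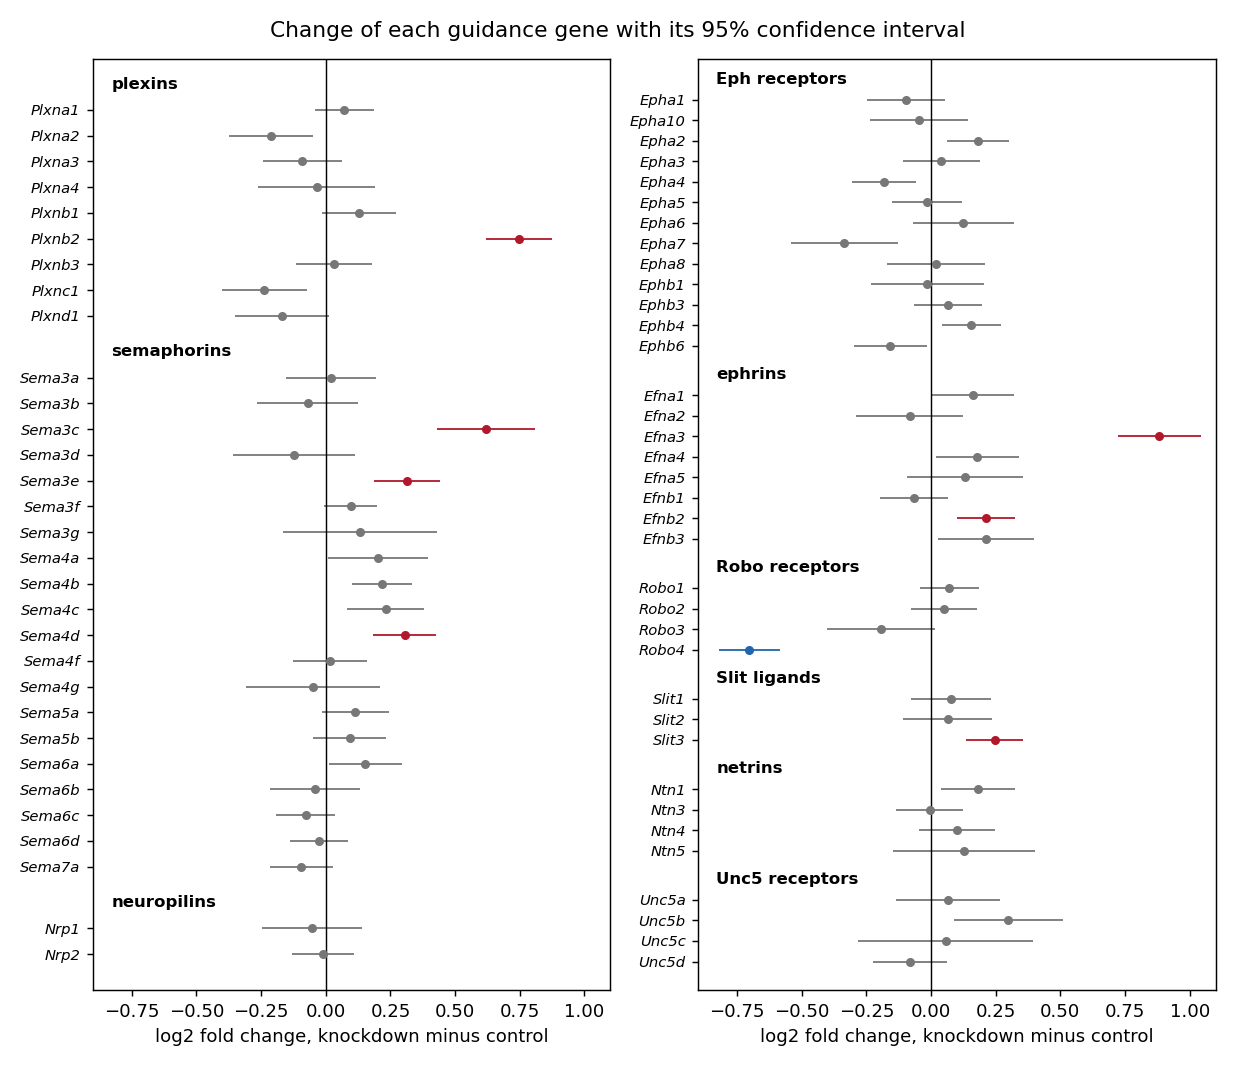
Log2 fold change (knockdown minus control, x axis) of each of the 67 guidance genes with its 95% confidence interval from limma, by family; red genes were called higher, blue lower, and grey were not called. Efna3 at 0.88, Plxnb2 at 0.75, Sema3c at 0.62 and Robo4 at −0.70 lie farthest from 0, and the uncalled genes lie between −0.34 and 0.30.

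Ephrins were measured for 8 genes, of which 2 rose and 6 were not called. The share called higher was 25%, beside 3.39% of all genes. At or above the median level of all genes, where 7 of the 8 lay, 5.69% of genes were called higher. The groups did not overlap for 4 that were higher, 50% beside 14.7% of all genes, and for 0 that were lower, beside 10.8%. Efna3, a lipid-anchored ligand of EphA receptors found in the nervous system and induced by hypoxia in other cells, read 8.28, 8.42 and 8.26 on control arrays 1 to 3 and 9.12, 9.18 and 9.30 on knockdown arrays 1 to 3. The groups lay far apart, with 0.70 between the highest control and the lowest knockdown value. Efna3 rose 1.84-fold (95% confidence interval 1.65 to 2.06), the largest estimate among the 67 genes, with a log2 fold change of 0.88 ± 0.068 SE and an adjusted p of 0.00173. Efna1 and Efna4 are its direct neighbours in the RefSeq gene table. Efna4 read 8.53, 8.53 and 8.69 on control arrays 1 to 3 and 8.72, 8.70 and 8.86 on knockdown arrays 1 to 3, a log2 fold change of 0.18 ± 0.069 SE (adjusted p = 0.21), and Efna1 had one of 0.16 ± 0.068 SE (adjusted p = 0.253). Neither passed, and the upper bounds of their 95% confidence intervals, 0.34 and 0.32, lie below the lower bound of 0.72 for Efna3. Efna5 was at 0.13 and Efna2 at −0.08, with overlapping groups.

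The ephrin-B ligands cross the membrane and carry a signalling tail. Efnb2, an arterial marker that binds Ephb4, read 7.35, 7.36 and 7.41 on control arrays 1 to 3 and 7.58, 7.63 and 7.55 on knockdown arrays 1 to 3. Its groups did not overlap, and it rose 1.16-fold with a log2 fold change of 0.21 ± 0.048 SE and an adjusted p of 0.0468, close to the threshold. Leaving out an array lost the call in 5 of 6 fits (adjusted p up to 0.190), and under both other scalings (0.106 and 0.0751). Efnb3 had a similar estimate of 0.21 with a larger error (SE 0.079, adjusted p = 0.197). Knockdown array 3 at 6.98 lay below control array 3 at 7.01, so its groups overlapped. Efnb1 was at −0.07. The median over the 8 ephrins was 0.17, and it was 0.14 under each of the other scalings.

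Eph receptors were measured for 13 genes, 9 of the EphA and 4 of the EphB class, and 0 were called, and 5 of the 13 had an unadjusted p under 0.05 in limma, beside 19.0% of all genes. With a trended and robust prior, limma called Epha2, Epha4 and Epha7. The groups did not overlap for 2 genes that were higher, 15.4% of the 13 beside 14.7% of all genes, and for 3 that were lower, 23.1% beside 10.8%. Epha2, a receptor of epithelia and of pluripotent cells, read 9.48, 9.55 and 9.58 on control arrays 1 to 3 and 9.73, 9.67 and 9.75 on knockdown arrays 1 to 3. Its log2 fold change was 0.18 ± 0.052 SE with an adjusted p of 0.0962. Epha4, the receptor that binds ephrins of both classes, read 9.03, 8.97 and 8.98 on control arrays 1 to 3 and 8.74, 8.84 and 8.86 on knockdown arrays 1 to 3, a log2 fold change of −0.18 ± 0.053 SE (adjusted p = 0.105).

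Epha7, known from the patterning of the neural tube and cortex, read 6.81, 6.62 and 6.66 on control arrays 1 to 3 and 6.24, 6.31 and 6.54 on knockdown arrays 1 to 3. All knockdown values were below all controls, with knockdown array 3 nearest to them. The log2 fold change was −0.34 ± 0.089 SE and did not pass (adjusted p = 0.0804), and without knockdown array 3 it was −0.42 with an adjusted p of 0.023 in limma. With any other array left out Epha7 was not called (adjusted p up to 0.257). With all arrays kept, limma called it lower after repeated quantile normalization (adjusted p = 0.0412) and with array weights (0.0138). The trended and robust prior named above gave 0.0345. It was not called with arrays centred on their medians (0.0522), a replicate block (0.167), all probe sets (0.0855) or their mean (0.0786). Ephb4, the receptor of Efnb2, was at 0.16 ± 0.049 SE (adjusted p = 0.127), with controls at 8.41 to 8.42 and knockdown arrays at 8.51 to 8.61. Ephb6, which lacks kinase activity, was at −0.16 (adjusted p = 0.214). Of the others, Ephb3 was at 0.07, Ephb1 at −0.01, Epha1 at −0.10, Epha6 at 0.13 and Epha10 at −0.05. Epha3, Epha5 and Epha8 were at 0.04, −0.02 and 0.02. Further probe sets of Epha10 and Ephb1 were not called either, at −0.12 and 0.07.

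Robo receptors were measured for 4 genes, and Robo4 was the one that fell, 25% of the 4 beside 2.15% of all genes called lower. Robo4, a short member of the family known from endothelial cells, where it stabilises vessels, read 7.49, 7.46 and 7.48 on control arrays 1 to 3 and 6.81, 6.80 and 6.70 on knockdown arrays 1 to 3. The controls spanned 0.026, and the highest knockdown value was 0.65 below the lowest control. Robo4 fell 1.63-fold, to 61.4% of the control level (95% confidence interval for the ratio of knockdown to control 0.57 to 0.67), with a log2 fold change of −0.70 ± 0.051 SE and an adjusted p of 0.00169. Robo3, its neighbour in the gene table and a regulator of midline crossing, read 5.06, 5.09 and 5.27 on control arrays 1 to 3 and 5.01, 5.04 and 4.77 on knockdown arrays 1 to 3, a log2 fold change of −0.19 ± 0.09 SE that did not pass (adjusted p = 0.297). Robo1, the widely expressed Slit receptor, read 8.99, 9.00 and 9.02 on control arrays 1 to 3 and 9.06, 9.02 and 9.13 on knockdown arrays 1 to 3, and its log2 fold change of 0.07 had a 95% confidence interval of −0.04 to 0.18. Robo2 was at 0.05 (−0.08 to 0.18).

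Since Robo4 is best known from endothelial cells, 6 endothelial markers were read beside it. In limma 0 of the 6 were called, beside 5.53% of all genes in either direction. Pecam1 and Cldn5 had an unadjusted p under 0.05 in limma, 33.3% of the 6 beside 19.0% of all genes. The mean log2 level of the 6 markers ran from 6.45 to 6.48 on the control arrays and from 6.45 to 6.51 on the knockdown arrays. Cdh5, which encodes the endothelial cadherin, was at 0.00, Tie1 at −0.01, Tek at −0.15 and Cldn5 at −0.20, while Kdr was at 0.19 and Pecam1, which stem cells also express, at 0.26. Without detection calls in the deposited values, none of these could be called absent.

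Slit ligands were measured for 3 genes, and Slit3 rose, 33.3% of the 3 beside 3.39% of all genes called higher. Slit3, a secreted ligand of Robo receptors, read 6.95, 6.98 and 6.93 on control arrays 1 to 3 and 7.18, 7.25 and 7.17 on knockdown arrays 1 to 3. The lowest knockdown value was 0.19 above the highest control, and the rise was 1.19-fold, with a log2 fold change of 0.25 ± 0.048 SE and an adjusted p of 0.0298. Its call held with knockdown array 3 left out and was lost with each of the other 5 arrays left out (adjusted p up to 0.132). Slit2, the ligand studied most in axon repulsion, read 7.68, 7.61 and 7.63 on control arrays 1 to 3 and 7.59, 7.66 and 7.86 on knockdown arrays 1 to 3, a log2 fold change of 0.06 with a 95% confidence interval of −0.11 to 0.24. Slit1 was at 0.08 (−0.08 to 0.23).

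Netrins and their repellent receptors of the Unc5 family were measured for 4 genes each, and 0 of the 8 were called, with 1 of 4 in each family at an unadjusted p under 0.05 in limma, beside 19.0% of all genes. With a trended and robust prior, limma called Ntn1 and Unc5b. Ntn1, the netrin that guides commissural axons, read 8.98, 8.96 and 9.00 on control arrays 1 to 3 and 9.28, 9.09 and 9.12 on knockdown arrays 1 to 3. Knockdown array 1 was the highest, all 3 were above the controls, and the log2 fold change was 0.18 ± 0.062 SE (adjusted p = 0.153). Ntn3, Ntn4 and Ntn5 were at −0.01, 0.10 and 0.13. Unc5b, which also acts in vessels and in p53-linked cell death, read 7.44, 7.53 and 7.29 on control arrays 1 to 3 and 7.57, 7.73 and 7.86 on knockdown arrays 1 to 3. Its knockdown arrays differed among themselves by 0.29, and its log2 fold change of 0.30 ± 0.091 SE did not pass (adjusted p = 0.119). Unc5a was at 0.07, Unc5c at 0.06 and Unc5d at −0.08, where the second probe set of Unc5d gave −0.08 as well.

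**Figure D3:**
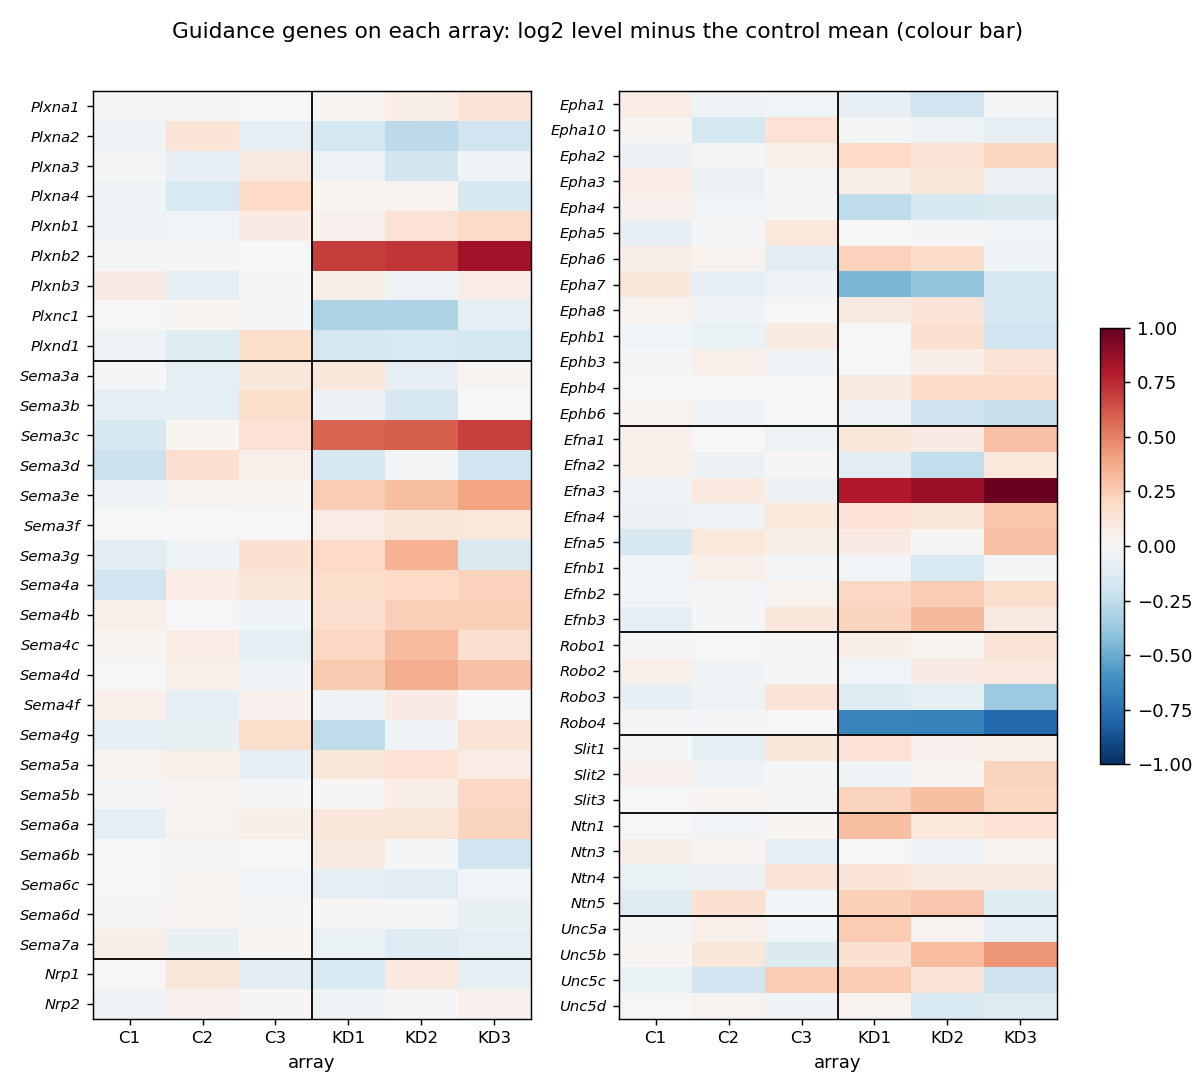
Log2 level of each of the 67 guidance genes on control arrays 1 to 3 (C1 to C3) and knockdown arrays 1 to 3 (KD1 to KD3) minus the gene's control mean; red is higher and blue lower, and lines part the families. Plxnb2, Sema3c and Efna3 are red and Robo4 is blue on all 3 knockdown arrays, and most other rows stay pale.

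Set apart by role, the 35 ligand genes (semaphorins, ephrins, Slits and netrins) held 6 of the 7 rises, and the 32 receptor genes held 1 rise and the 1 fall. The share called higher was 17.1% of ligand genes and 3.13% of receptor genes, beside 3.39% of all genes. The share called lower was 0% and 3.13%, beside 2.15%. Among the ligand genes, Sema3e, Sema4d, Slit3 and Efnb2 were not called when any control array was left out. The knockdown arrays lay above the controls without overlap for 15 of the 35 ligand genes and below them for 0, beside 6 above and 8 below of the 32 receptor genes. These are 42.9% and 0% of ligand genes and 18.8% and 25.0% of receptor genes, where 14.7% of all genes lay above and 10.8% below. The median log2 fold change was 0.11 over ligands and −0.01 over receptors, and under the other scalings 0.09 and 0.08 over ligands and −0.04 and −0.04 over receptors. Over all genes this median was 0.00, and −0.01 and −0.03 under the other scalings. The estimates were positive for 25 of 35 ligands and 15 of 32 receptors, which became 23 and 14 under each of the other scalings. The difference between ligands and receptors was not tested. Of the 7 rises 6, and the fall of Robo4, were among the 31 guidance genes whose mean level was at or above the median of all genes, and Sema3c was the exception. Calls over all genes lay there too, with 567 of 675 rises and 354 of 428 falls. By role, 17 of 35 ligand genes and 14 of 32 receptor genes were at or above that median.

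Partners and effectors of these pathways were read from 5 lists. Of 87 listed genes 82 were measured, and 7 rose and 1 fell, 8.54% and 1.22%, beside 3.39% and 2.15% of all genes. Of the 82, 57 lay at or above the median level of all genes, where 5.69% of genes were called higher and 3.55% lower. The median log2 fold change was 0.02. In the list of semaphorin and plexin partners 3 of 29 rose and 1 fell. Vegfa, the angiogenic factor that shares neuropilins with the semaphorins, rose by 0.53 ± 0.063 SE (adjusted p = 0.00589). Rnd1, a small GTPase that binds plexins, rose by 0.36 ± 0.064 SE, and Mical3, a redox enzyme of a family that disassembles actin downstream of plexins, by 0.31 ± 0.058 SE. Dpysl3, of the family of collapsin response mediators that relay semaphorin signals, fell by 0.50 ± 0.086 SE (adjusted p = 0.0187).

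Among effectors of Eph and ephrin signals 2 of 17 rose, the adaptor Nck2 by 0.36 ± 0.056 SE (adjusted p = 0.0141) and the lipid phosphatase Inppl1, which binds Epha2, by 0.29 ± 0.052 SE. The netrin and repulsive guidance partners held 0 calls among 12 genes and the Slit and Robo effectors 0 among 14 in limma, with 1 and 6 at an unadjusted p under 0.05, beside 19.0% of all genes. The 2 lists differed in level, with 3 of the 12 and 14 of the 14 at or above the median of all genes. At or above that median 27.8% of genes had an unadjusted p under 0.05 in limma, and below it 10.3%. Of the 8 called partners, Vegfa was the one that stayed called whichever array was left out. The count of rises was 1 when any control array was left out, and it was 5, 3 and 7 when knockdown array 1, 2 or 3 was. The count of falls was 0 without control array 1, 2 or 3 and 4 without knockdown array 3.

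Many guidance genes are expressed by neural cells, so neural markers were read beside them. Of 12 listed markers 10 were measured, and 1 rose and 2 fell, 10% and 20%, beside 3.39% and 2.15% of all genes. Their mean log2 level ran from 7.60 to 7.62 on control arrays and from 7.47 to 7.53 on knockdown arrays. Pax6 and the neurofilament gene Nefl fell by 0.76 and 0.81 and Nes rose by 0.27, a call that was lost with any array left out (adjusted p up to 0.185), while Tubb3 at 0.08, Map2 at 0.04, Dcx at 0.07, Elavl3 at −0.02 and Stmn2 at −0.08 did not pass. Fibroblast markers were measured for 10 genes, of which the smooth muscle genes Acta2 and Tagln fell, 20% beside 2.15% of all genes. Tagln was called in 2 of the 6 limma fits with an array left out (adjusted p up to 0.088). The list means were 6.19 to 6.32 on control and 6.07 to 6.21 on knockdown arrays. Markers of mesoderm and endoderm held 0 calls among 7 in limma, beside 5.53% of all genes in either direction. Of the 7, 1 had an unadjusted p under 0.05 in limma, 14.3% beside 19.0% of all genes. The list means were 6.20 to 6.23 on control and 6.06 to 6.18 on knockdown arrays. Stem cell markers held 3 rises (Zfp42, Klf4 and Fgf4) and 1 fall (Lin28a) among 12, and 0 of these 4 stayed called in limma with every array left out in turn. All 12 lay at or above the median level of all genes, where 5.69% of genes were called higher and 3.55% lower. The part of these cell types in the guidance gene values was not tested.

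**Figure D4:**
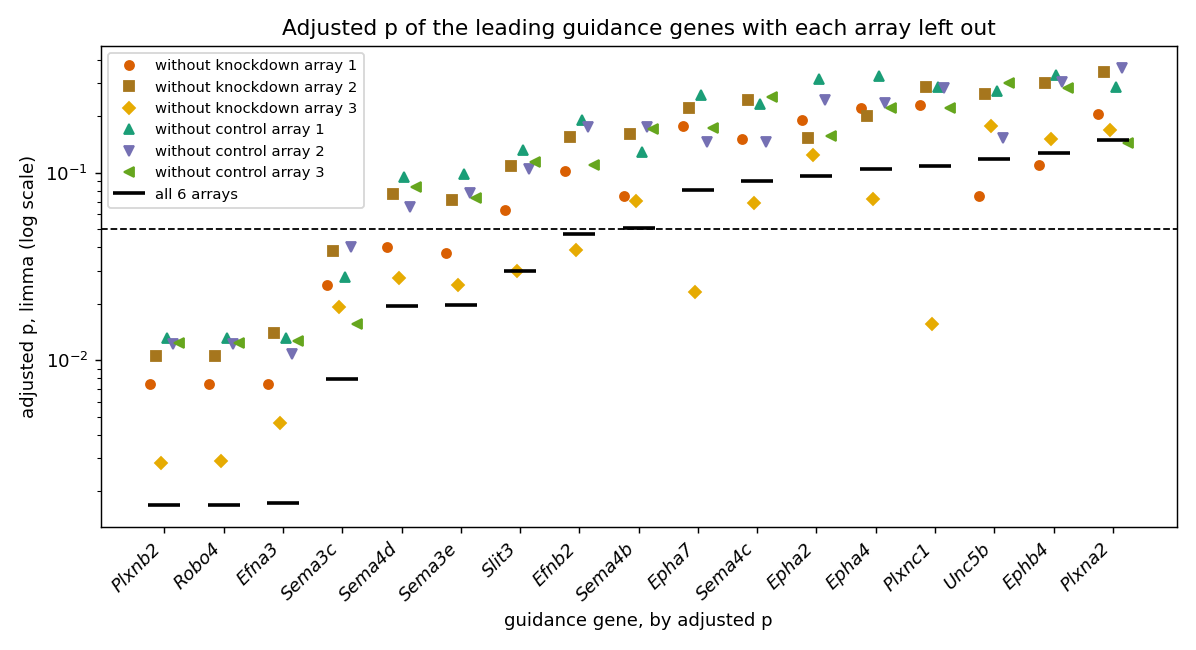
Adjusted p in limma (log axis) of the 17 guidance genes with an adjusted p under 0.15, with all 6 arrays (black bars) and with each array left out in turn (coloured symbols); the dashed line marks 0.05. Plxnb2, Robo4, Efna3 and Sema3c stay below the line in all 6 fits, while Sema4d, Sema3e, Slit3 and Efnb2 cross it when a control array or knockdown array 2 is left out. Slit3 and Efnb2 also cross it when knockdown array 1 is left out.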

How the data were processed

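RNA from 6 samples of mouse embryonic stem cells was read on single-colour Affymetrix arrays. Per the labels' protocols, a whole-transcript kit amplified 100 ng of total RNA, which was then fragmented and labelled. The authors deposited log2 expression for every probe set. The submitters' processing notes name RMA and affy without versions. RMA scales arrays towards 1 distribution, so a shift shared by most genes can be hidden. The deposited arrays did not share 1 distribution fully. Their medians were 6.26 on each control array and 6.27, 6.30 and 6.31 on knockdown arrays 1 to 3. The upper quartile was 8.42 on knockdown array 3 and 8.32 to 8.35 on the other arrays.

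GEO's platform annotation gave 1 symbol to 21640 of 34760 probe sets, several to 1321 and none to 11799. Taking the brightest probe set of each gene left 19937 genes, and all 67 guidance genes matched RefSeq by Entrez identifier. Group was the only term of the fit (lmFit and eBayes, limma 3.58.1, R 4.3.3), adjusted by Benjamini-Hochberg over 19937 genes, and the fit was tested on simulated data. No intensity filter was applied, and the number of arrays limits the precision. A two-sided exact permutation test of Trim71 gave p = 0.1, which 3 against 3 arrays cannot go below. Summaries used Python 3.11.15, pandas 2.3.3 and scipy 1.17.1, and figures matplotlib 3.10.9.

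Full statistics go to called genes and to the gene with the largest moderated statistic of a family without calls, and other uncalled genes given with an error were chosen after their values were seen. Partners are named where called, at most 6 per list. For 1 of the 5 partner lists the result is not reported here apart from the totals. The guidance genes and all lists were chosen with earlier results of these data known. Alternatives were a replicate block, each array left out, genes at or above the median level, both scalings, all probe sets, their mean, a trended and robust prior, and array weights.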

Additional observations from a re-analysis of the deposited data

How the results depend on the processing

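Over 14 alternatives, Plxnb2, Efna3 and Robo4 were called in all 14 and Sema3c in the 13 that tested it, its level being below the median of all genes. The 8 called genes kept their direction in all alternatives that tested them. Sema3e was called in 9 of 14, Sema4d and Slit3 in 8 and Efnb2 in 6. With an array left out, the count of guidance genes called higher ran from 3 to 7 and lower from 1 to 3, and for partners from 1 to 7 and from 0 to 4. With genes at or above the median level, guidance genes called higher and lower numbered 10 and 3, and partners 14 and 4. With a trended and robust prior they were 11 and 3, and partners 12 and 4. With array weights they were 11 and 4, and partners 12 and 5. After a repeated quantile normalization they were 7 and 4, and partners 10 and 2. With arrays centred on their medians they were 6 and 2, and partners 7 and 2. The fit above the median level tested fewer genes and also gave other SEs (for Plxnb2 0.048 beside 0.055). The cause of the different counts was not tested for any of these settings. Repeated quantile normalization moved the median log2 fold change of all genes from 0.00 to −0.01, and centring moved it to −0.03. Of 98 genes named here, 21 changed the sign of their log2 fold change under some alternative, and 0 of these were called. With array weights the values turned to 0.039 for Plxna4, −0.0059 for Plxnb3, −0.0075 for Sema3a, 0.0015 for Epha5 and 0.098 for Ephb1. After centring the values turned to −0.011 for Sema3a, −0.013 for Sema4f and −0.012 for Epha8. With the mean of probe sets the values turned to 0.028 for Ephb1. After repeated quantile normalization the values turned to −0.00063 for Sema3a, −0.0097 for Sema4f and −0.0057 for Epha8. With an array left out the range was −0.112 to 0.062 for Plxna4, −0.016 to 0.074 for Plxnb3, −0.030 to 0.076 for Sema3a, −0.114 to 0.018 for Sema3b and −0.033 to 0.044 for Sema4f. It was −0.142 to 0.050 for Sema4g, −0.106 to 0.038 for Sema6b, −0.126 to 0.0042 for Nrp1, −0.037 to 0.010 for Nrp2 and −0.135 to 0.025 for Epha10. The range ran from −0.0011 to 0.091 for Epha3, −0.057 to 0.033 for Epha5, −0.038 to 0.110 for Epha8, −0.102 to 0.079 for Ephb1 and −0.015 to 0.118 for Slit2. Values spanned −0.050 to 0.028 for Ntn3, −0.028 to 0.143 for Unc5a, −0.040 to 0.190 for Unc5c, −0.043 to 0.042 for Cdh5 and −0.058 to 0.043 for Tie1. Estimates ran from −0.0017 to 0.115 for Dcx.

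It is not stated whether the replicate numbers pair the arrays. Deviations from the group means correlated at −0.02, −0.15 and −0.24 between arrays of the same number, and at −0.23 to 0.28 between arrays of different numbers. These correlations cannot settle a pairing, since the deviations within a group sum to 0. With the replicate number as a block, 3 guidance genes were called higher and 1 lower, and 1 partner higher and 0 lower in limma. Trim71 was called lower in all 14 alternatives. Dim probe sets understate the change of a transcript, and 36 of the 67 guidance genes lay below the median level.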

Other observations

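The genes that flank the called guidance genes were read from the RefSeq gene table, the nearest 2 measured protein-coding genes on each side, which gave 31 different genes. Of these, 2 were called higher and 1 lower in limma, beside 3.39% and 2.15% of all genes. Adam15, which encodes a membrane metalloprotease and lies on the far side of Efna4 from Efna3, rose by 0.49 ± 0.058 SE (adjusted p = 0.00589), so along this stretch the log2 fold changes were −0.24 for Slc50a1 (adjusted p = 0.126, not called), 0.16 for Efna1, 0.88 for Efna3, 0.18 for Efna4 and 0.49 for Adam15. Pank3, a pantothenate kinase gene next to Slit3, rose by 0.70 ± 0.044 SE (adjusted p = 0.00118). Mapk12, near Plxnb2, fell by 0.34 ± 0.062 SE (adjusted p = 0.0236). Robo3, a direct neighbour of Robo4, was at −0.19, and Sema3a, near Sema3e, at 0.02, and neither was called.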
